A study of Arabidopsis thaliana with 4 samples.

Results

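A MYC-bZIP17 peak was found upstream of *AtbZIP60* (*AT1G42990*), on chromosome 1, in all 3 ChIP-seq replicates. *AtbZIP60* encodes another transcription factor of the unfolded protein response (UPR), and it was 1 of the 842 genes in the 1389 lines used here, of 2629 in all, of the study's supplementary table of target genes. Its peaks were found by joining this table to the deposited peak lists by peak name, which gave 1 peak per replicate, 3 of the 13344 peaks in the lists. The pileup (how many fragments MACS counted over the summit) was 140 ± 11.1 (SD, n = 3). The fold enrichment, roughly that pileup divided by the background MACS expected there from the input, was 7.69 ± 0.809 (SD, n = 3). The study's table, which links peaks to genes by the 2 kb upstream, listed the peak for *AtbZIP60* and for no other gene in the lines used. The called peak was 2452 bp wide in replicate 1 and 2056 bp in replicate 3. It therefore cannot lie wholly within those 2 kb in these replicates, and its distance to the gene start was not measured. Only these lines were held, so ranks and counts over the 842 target genes refer to part of the table.

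The UPR is the program by which a cell answers misfolded proteins in the endoplasmic reticulum (ER). In *Arabidopsis* it has several branches that start at membranes. AtbZIP17 and its paralog AtbZIP28 are held in the ER membrane, move to the Golgi under stress, and are cut there by proteases so that the transcription factor part reaches the nucleus. *AtbZIP60* is regulated differently: the ER kinase and nuclease IRE1 splices its mRNA outside the usual spliceosome, and the shifted reading frame yields a protein without the membrane anchor. The transcript of *AtbZIP60* is itself induced by ER stress, so binding of a factor from the other branch upstream of this gene bears on how the branches are connected.

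There were 3 ChIP samples (replicates 1, 2 and 3) and 1 input library, all from Col-0 seedlings carrying *35Spro::MYC-bZIP17*, 13 days old, grown at 22 °C and kept at 42 °C for 2 h. The 35S promoter drives the tagged AtbZIP17 strongly in most tissues, so occupancy refers to plants that overexpress the factor, and whole seedlings were used, so the cells in which it bound are not known. The tagged protein and its DNA were recovered with an antibody to MYC, and every ChIP sample was set against the same input. Unheated seedlings and seedlings without the tag were not analysed here, so all values are from 1 condition and none measures a response to heat. The labels do not say whether the replicates came from separate plant cultures, so the SD covers only the spread between these samples. The lists held 4523, 4491 and 4330 peaks in replicates 1, 2 and 3. They state no read totals, so the depth is unknown.

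The *AtbZIP60* peak had pileups of 128, 141 and 150 fragments in replicates 1, 2 and 3. The median peak of the same lists had 35, 35 and 34 fragments, so that the *AtbZIP60* peak was 3.66, 4.03 and 4.41 times as high. By pileup it ranked 157 of 4523, 162 of 4491 and 143 of 4330, and 96.5%, 96.4% and 96.6% of the peaks were lower. It was therefore a high peak in every list and well away from the top of each. Among the peaks of chromosome 1 alone, it ranked 40 of 1375, 43 of 1380 and 37 of 1306.

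Fold enrichment at *AtbZIP60* was 6.90, 7.65 and 8.51 in replicates 1, 2 and 3. The medians of all peaks were 2.20, 2.22 and 2.24. In ranks by fold enrichment the peak stood at 159, 176 and 146, close to its ranks by pileup. The −log10 of the *q* value, which MACS derives from the same pileup and background, was 61.0, 72.9 and 84.0, against list medians of 3.16, 3.23 and 3.23. Dividing the pileup by the fold enrichment gives only a rough estimate of the background. It was 18.6, 18.4 and 17.6 fragments, against medians of 16.0, 15.8 and 15.4 over all peaks of each list. This estimate was higher than that of 85.2%, 86.9% and 84.5% of the peaks. The plot of values by replicate shows pileup, fold enrichment and width beside the medians of all peaks.

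**Figure D1:**
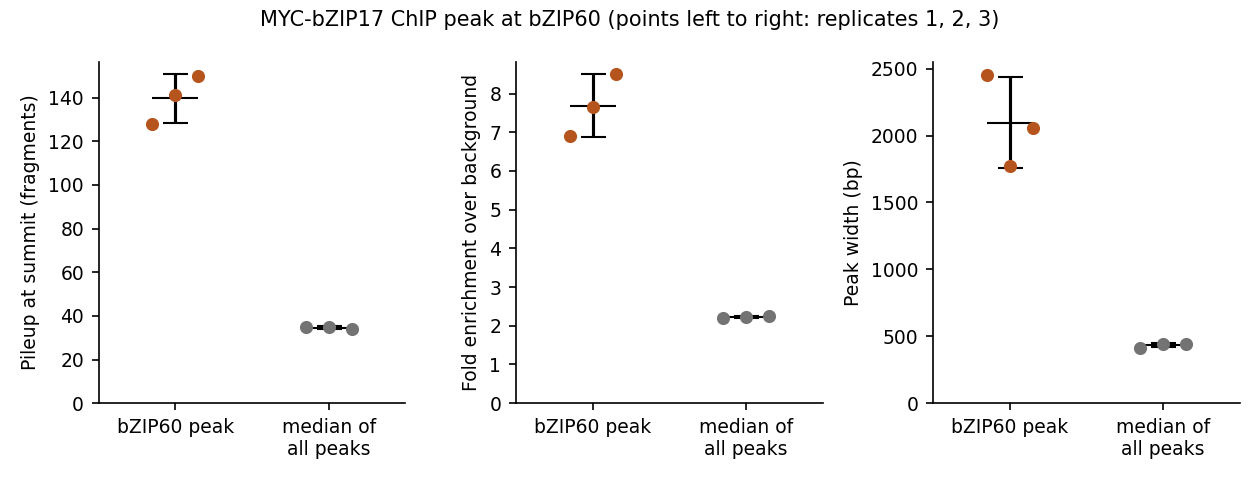
Pileup (fragments), fold enrichment and width (bp) of the *AtbZIP60* peak, beside the median over all peaks of the same list. Points are replicates 1, 2 and 3 from left to right, and bars are the mean and SD (n = 3). In each panel, every *AtbZIP60* value (128 to 150 fragments, 6.90 to 8.51-fold, 1776 to 2452 bp) lies above the list medians (34 to 35 fragments, 2.20 to 2.24-fold, 416 to 441 bp).

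Replicate 1 had the lowest pileup and fold enrichment at *AtbZIP60*, and replicate 3 the highest. To see whether this order was shared, the peaks of the 3 lists were merged into 8992 regions wherever they overlapped by at least 1 bp, of which 1341 (14.9%) held a peak of every replicate and are called common regions. In 103 other common regions the mean fold enrichment lay within 1.2-fold of that of *AtbZIP60*. Replicate 1 was the lowest in 80.6% of these 103 regions, and in 55.4% of all common regions. The whole order, with replicate 3 also the highest, was found in 47 of the 103 regions (45.6%). The fold enrichment of replicate 3 was 1.23 times that of replicate 1 at *AtbZIP60*, and the median of this ratio over the 103 regions was 1.19. The coefficient of variation over the replicates was 10.5% at *AtbZIP60*, and its median was 11.9% over the 103 regions. The spread at *AtbZIP60* was thus like that of regions bound at a similar level.

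Coordinates are those of the deposited lists, which the submitters' processing notes place on TAIR10. On chromosome 1, replicate 1 had the widest peak, 2452 bp between 16136836 and 16139287. The peak of replicate 2 was 1776 bp wide, between 16137027 and 16138802, and that of replicate 3 was 2056 bp wide, between 16136558 and 16138613. The summit positions 16137668, 16137716 and 16137677 of replicates 1, 2 and 3 all fell within 48 bp. The edges agreed less well than the summits, with the starts spread over 469 bp and the ends over 674 bp. The stretch covered by all 3 peaks, from 16137027 to 16138613, was 1587 bp long, or 58.1% of the 2730 bp covered by any of them. Any pair of replicates overlapped by 72.4% to 77.2% of the longer peak. The map of peak extents shows these ranges around the summits.

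**Figure D2:**
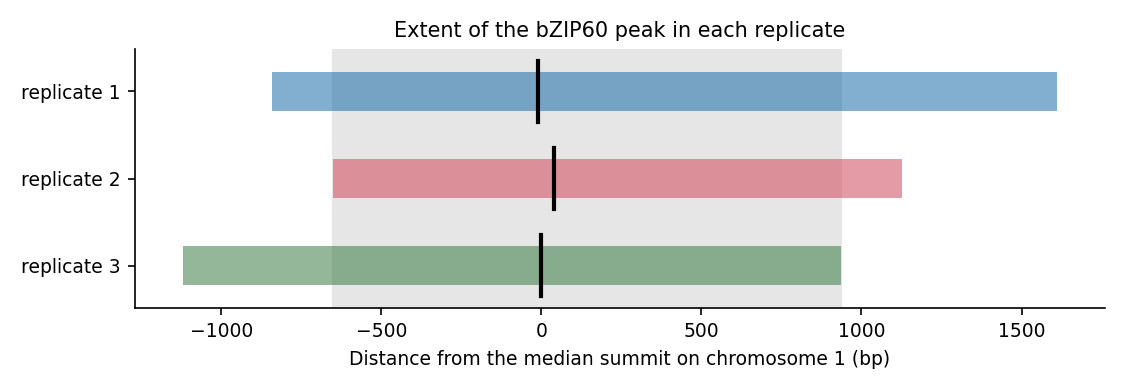
Extent of the *AtbZIP60* peak in replicates 1, 2 and 3, as distance in bp from the median summit on chromosome 1. Colored bars are the called peaks, black lines the summits, and the grey area the 1587 bp covered by all 3 peaks. The summits lie within 48 bp of one another, while the starts differ by up to 469 bp and the ends by up to 674 bp.

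The peak was not symmetrical around its summit, and the longer side differed between replicates. From the start to the summit there were 832, 689 and 1119 bp in replicates 1, 2 and 3, and from the summit to the end 1619, 1086 and 936 bp. The side of higher coordinates was the longer one in replicates 1 and 2 and the shorter one in replicate 3. The mean width of 2095 ± 340 bp (SD, n = 3) was 4.86 ± 0.948 times the median of the lists. Among peaks within 1.2-fold of its fold enrichment in the same list, of which there were 113, 111 and 94 with *AtbZIP60* itself counted, the median width was 2236, 2109 and 2163 bp. Its width was thus above that median in replicate 1 and below it in replicates 2 and 3.

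As a common region, *AtbZIP60* ranked 152 of 1341 by mean pileup, above 88.7% of the common regions, and 158 by mean fold enrichment. The medians over the common regions were 52.7 fragments and 3.04-fold. By mean width it ranked 220, and the median common region was 931 bp wide. The 3 summits lay farther apart than at *AtbZIP60* in 72.7% of the common regions, whose median span was 95 bp. Among the 103 regions of similar fold enrichment this share was 39.8% and the median span 37 bp. The position of the *AtbZIP60* summit therefore agreed between replicates about as well as in other regions bound at that level. The curve of common regions by mean pileup shows where the region stands.

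**Figure D3:**
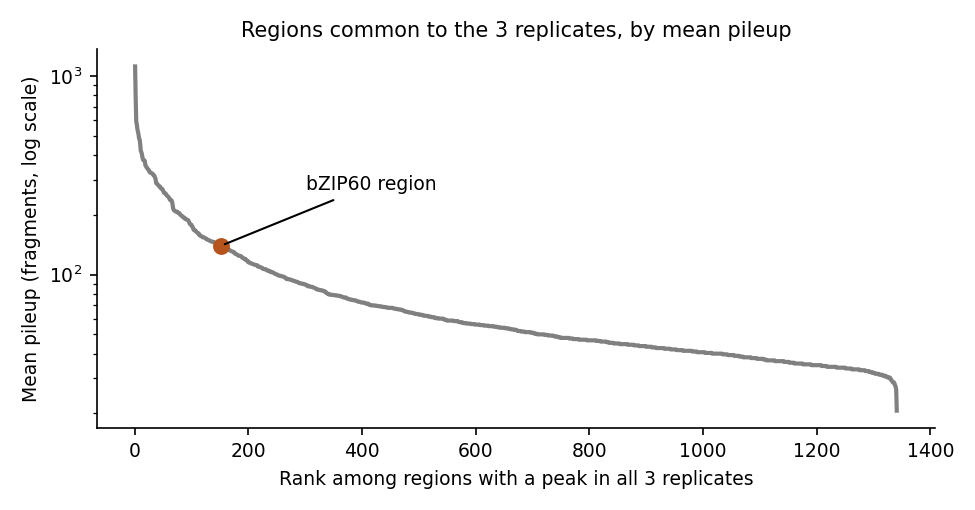
Mean pileup over the 3 replicates (fragments, log scale) of the 1341 regions with a peak in every replicate, ordered from the highest to the lowest. The line is all regions and the point is the *AtbZIP60* region, which has rank 152 with a mean of 140 fragments, below the steep rise at the top and above the long shoulder of regions near the median of 52.7 fragments.

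No other high peak lay near *AtbZIP60* on this stretch of chromosome 1. Within 100 kb of its summit, replicate 3 had no other peak and replicate 2 had 1, whose summit was 3.19 kb away and whose fold enrichment was 1.93. Replicate 1 had 4 other peaks in this window, with fold enrichments from 1.92 to 2.32, and the nearest was 5.84 kb away on the side of lower coordinates. None of these 5 weak peaks was found in more than 1 replicate. Within 500 kb there were 17, 6 and 7 other peaks in replicates 1, 2 and 3, and the highest of them reached a fold enrichment of 3.26, 3.37 and 3.48. The highest pileup among these neighbours was 56, 51 and 48 fragments.

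Only 3 other common regions lay within 500 kb of the *AtbZIP60* summit. The one 257 kb below it had a mean fold enrichment of 2.56, the one 201 kb below it 3.01, and the one 287 kb above it 3.23. The nearest peak at least as high as that of *AtbZIP60* was much farther away. On the side of higher coordinates its summit was 1755 kb away in each replicate, with 255, 304 and 291 fragments. On the side of lower coordinates, which contains the centromere, it was 5551 kb away in replicate 1, 4692 kb in replicate 2 and 5551 kb in replicate 3. The plot of neighbouring peaks shows the window of 500 kb on either side.

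**Figure D4:**
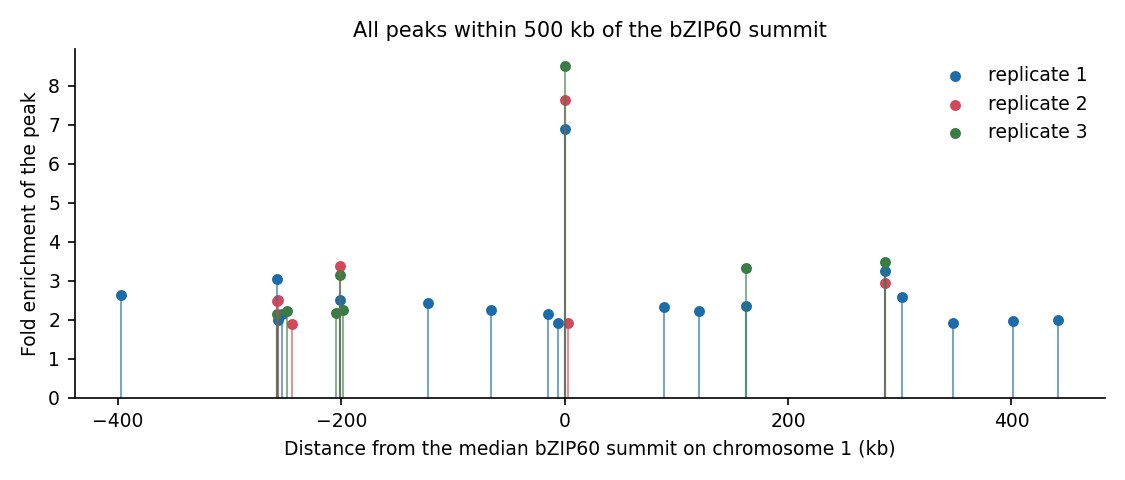
Fold enrichment of every peak within 500 kb of the median *AtbZIP60* summit, against the distance from that summit in kb. Each stem is 1 peak and colors are replicates. The *AtbZIP60* peaks (6.90 to 8.51-fold) are at distance 0, and no other peak in the window exceeds 3.48-fold.

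No other gene in the lines used was listed with any of the 3 *AtbZIP60* peaks. This bears on which gene the peak can be linked to, since 303 of the 842 target genes (36.0%) had a peak that was listed for another gene as well. The genes next to *AtbZIP60* among protein-coding genes in the RefSeq order, *AT1G42980* and *AT1G43000*, are named in none of the lines used. They are also missing from the study's flower list, its genes with heat induction in WT flowers and without it in those of the *bzip17* mutant. Among the 842 target genes of the lines used, the nearest on the side of lower coordinates was *AT1G42480*, with a summit 201 kb away and fold enrichments of 2.51, 3.37 and 3.15. On the other side it was *CH1* (*AT1G44446*), the chlorophyllide a oxygenase that makes chlorophyll b, 714 kb away with 2.51, 2.75 and 2.63. Both had lower values than *AtbZIP60* in every replicate. Genes of the other lines, which were not used here, may lie nearer, and the common region 287 kb above the summit is in fact closer than that of *CH1*.

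*AtbZIP60* took up a single one of the lines used, as did 553 of the 842 genes (65.7%), and further lines beyond these are not known. Its 3 peaks overlapped one another, which held for at least 1 line of 788 target genes (93.6%). They also had a fold enrichment of at least 3 in every replicate, which 397 genes (47.1%) reached, and a *q* value below 1e-05, which 553 genes (65.7%) reached. When genes were ordered by the mean fold enrichment of their strongest peaks, *AtbZIP60* ranked 128 of 842, with ranks of 131, 140 and 115 in replicates 1, 2 and 3. The median over the 842 genes was 3.34. *AtbZIP60* is not among the 1380 genes of the flower list. That list comes from floral buds without the tagged protein, heated at another temperature and for another time. A gene induced by heat in both WT and mutant flowers would be absent from it too. The paper cites earlier work in which heat raised *AtbZIP60* expression in flowers. Of the 842 target genes, 57 (6.77%) are on the flower list, which holds 4.78% of all protein-coding genes in the RefSeq table. The median fold enrichment of these 57 genes was 3.35.

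The question raised by a peak of 1 UPR factor at the gene of another is whether other regulators of the pathway were bound too. A list of 14 genes was used: the 4 membrane-associated factors *AtbZIP17*, *AtbZIP28*, *AtbZIP49* and *AtbZIP60*, the stress sensors and splicing enzymes *IRE1A* and *IRE1B*, the Golgi proteases *S1P* and *S2P*, the NAC factors *NAC062*, *NAC089* and *NAC103*, and *NF-YA4*, *NF-YB3* and *NF-YC2*, subunits of the NF-Y complex that AtbZIP28 joins on DNA. Of these, 3 occur in the lines used, namely *AtbZIP60*, *NAC089* and *NF-YC2*, while 2.82% of all protein-coding genes in the RefSeq table do. *AtbZIP60* is the gene studied here and was known to be in these lines, so counting it was certain to raise the share. Only *NAC089* and *NF-YC2* bear on whether other regulators were bound. The list was chosen with results of these data known, so its share is not independent of them. The other 11 genes, *AtbZIP17* and *AtbZIP28* included, are in none of the lines used and were not analysed here. *AtbZIP49* is the only 1 of the 14 on the flower list, which holds 4.78% of the protein-coding genes.

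*AtbZIP60* had the highest fold enrichment of the 3 regulators in every replicate. *NAC089* (*AT5G22290*), a membrane-anchored NAC factor that controls cell death under ER stress, had 4.80, 4.72 and 3.14 in replicates 1, 2 and 3, with pileups of 80, 80 and 55 fragments. The *AtbZIP60* value was 1.44, 1.62 and 2.71 times that of *NAC089* within the same list, and the ranges of the 2 genes do not overlap. The *NAC089* peaks were also listed for *AT5G22280* and *NIT4* (*AT5G22300*), so they cannot be linked to *NAC089* alone. Its summits, on chromosome 5, were 161 bp apart, against 48 bp at *AtbZIP60*.

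*NF-YC2* (*AT1G56170*) had fold enrichments of 2.18, 3.45 and 2.91 and pileups of 46, 74 and 60 fragments. The *AtbZIP60* value was 3.16, 2.22 and 2.92 times as high, a mean of 2.77 ± 0.492 (SD, n = 3), and again the ranges do not overlap. *NF-YC2* did not reach a fold enrichment of 3 in all replicates, nor a *q* value below 1e-05 in all of them, and ranked 523 of 842. Among the 3 regulators, replicate 1 was the lowest at *AtbZIP60* and *NF-YC2* and the highest at *NAC089*, so the 3 genes did not vary together over the replicates.

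Genes for protein folding and quality control in the ER are the textbook output of the UPR, and 8 of a list of 22 such genes occur in the lines used (2.82% of all protein-coding genes do). This list was chosen in the same way. The other 14, *BiP1*, *BiP2*, *CNX1*, *CNX2*, *CRT1*, *CRT2*, *CRT3*, *SHD*, *ERDJ3A*, *ERDJ3B*, *PDI6*, *PDI9*, *HRD1A* and *BAG7*, were not analysed here. Of these, the paper reports binding at *CNX1*, *SHD* and *ERDJ3B* by ChIP-seq and by ChIP-qPCR. As only part of the table was held, the 8 genes alone do not show which members of the list were bound. The mean fold enrichment was lower at *AtbZIP60* than at 7 of these 8 genes and higher than at 1. Of the whole list, 8 of 22 genes are on the flower list, which holds 4.78% of the protein-coding genes. Of the 8 genes in the lines used, 3 are on it (*SDF2*, *P58IPK* and *HRD3A*), against 6.77% of all 842 target genes, while *AtbZIP60* is not.

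At 6 of these genes no value fell as low as the highest value of *AtbZIP60*, 8.51. They were *PDI10* (*AT1G04980*), *DER1* (*AT4G29330*), *SDF2* (*AT2G25110*), *PDI11* (*AT2G47470*), *P58IPK* (*AT5G03160*) and *BiP3* (*AT1G09080*). The protein disulfide isomerases PDI10 and PDI11 form disulfide bonds in folding proteins, DER1 is a derlin of ER-associated degradation, and SDF2 and P58IPK work with the chaperone BiP. *AtbZIP60* had 0.480 ± 0.0410 times the fold enrichment of *PDI10*, the highest of the 8, within the same list and 0.527 ± 0.0356 times that of *SDF2* (SD, n = 3 each). *BiP3*, the BiP gene that ER stress induces most sharply, had 10.3, 11.7 and 11.5 in replicates 1, 2 and 3, and *AtbZIP60* had 0.689 ± 0.0476 times its value (SD, n = 3). The *BiP3* peaks were also listed for *RBOHB* (*AT1G09090*) and those of *PDI10* in replicates 1 and 3 for *AT1G04985*.

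The closest neighbours of *AtbZIP60* in this order were *PDI5* and *HRD3A*. *PDI5* (*AT1G21750*), a further disulfide isomerase, had fold enrichments of 7.80, 8.28 and 10.6, and *AtbZIP60* was lower in 3 of 3 replicates, with 0.870 ± 0.0623 times its value (SD, n = 3). *HRD3A* (*AT1G18260*), a part of the ubiquitin ligase complex for misfolded ER proteins, had 5.51, 6.81 and 7.28, and *AtbZIP60* was higher in 3 of 3 replicates, by 1.18 ± 0.0649 times (SD, n = 3). The strongest *HRD3A* peak of replicate 2 was also listed for *AT1G18265*. The range of *AtbZIP60* over the replicates overlaps that of both genes. The values of the genes are paired, as they come from the same 3 samples, and with so few pairs these differences were not tested. The plot of UPR genes shows the 11 genes of both lists.

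**Figure D5:**
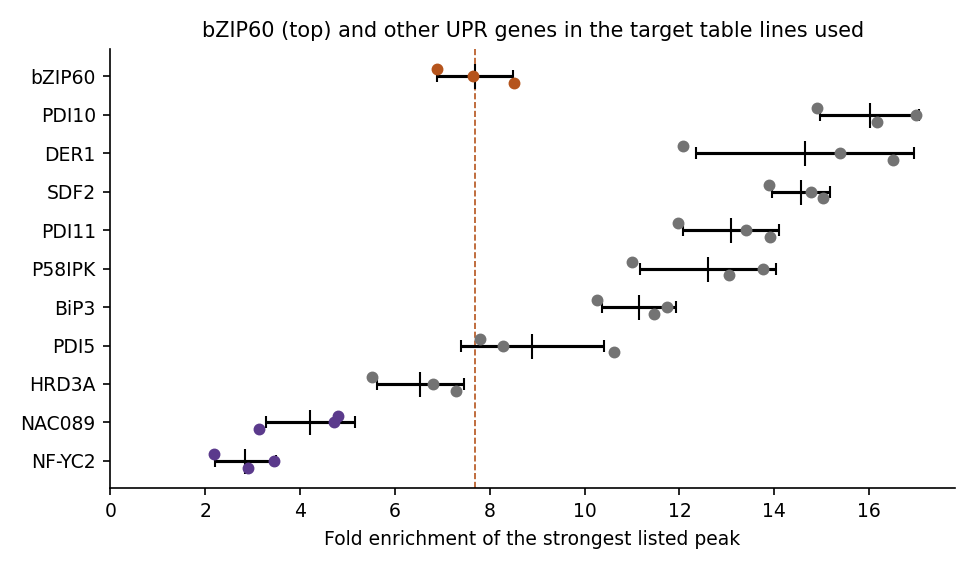
Fold enrichment of the strongest listed peak at *AtbZIP60* (top row, orange) and at the other 10 UPR genes found in the lines used, ordered by their mean, with regulators in purple and folding or quality control genes in grey. Points are replicates 1, 2 and 3 from top to bottom of each row, bars are the mean and SD (n = 3), and the dashed line is the *AtbZIP60* mean of 7.69. *AtbZIP60* lies between *PDI5* and *HRD3A*, above both other regulators.

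Genes whose 3 values were nearest to those of *AtbZIP60* were found by the Euclidean distance of log2 fold enrichments over the 3 replicates. The 5 nearest were *AT1G20880* and *AT1G20890* (distance 0.10), *AT3G06760* (0.14), and *AT1G14010* and *AT1G14020* (0.16). They stand for 3 sets of peaks only, since *AT1G20880* and *AT1G20890* have the same strongest peaks, with 7.35, 7.76 and 8.35, as do *AT1G14010* and *AT1G14020*, with 7.42, 8.25 and 8.19. *AT3G06760* has its peaks to itself, with 6.30, 7.82 and 8.67. At all 3 sets replicate 1 had the lowest value, as at *AtbZIP60*. The pileup at *AT1G20880* and *AT1G20890* was 181, 184 and 194 fragments, higher than at *AtbZIP60* in each replicate at nearly the same fold enrichment. Likeness over 3 samples of a single condition describes these values and nothing more.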

How the data were processed

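Peak lists from 3 ChIP-seq samples (anti-MYC) were used, and the 1 input entered only through peak calling. The authors trimmed reads with Skewer, dropped those under 50 bp, mapped the rest uniquely with Bowtie, removed duplicates and called peaks per sample with MACS (*P* value limit of 0.001). The submitters' notes name TAIR10, and versions are not given in the sources used here. The deposited pileup is a signal in fragments, and the deposited fold enrichment is a linear ratio to the background. The deposited lists also hold −log10 of the p-value and q-value, and the peak width in bp. Removal of duplicates can lower the pileup of high peaks, and regions without a listed peak can lie just under the limit. With depth unknown, no counting interval was computed.

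Peaks were linked to genes by peak name through the target table. The copy used was cut short, and the 1240 lines beyond the cut were not analysed here. Only names were taken from that table and from the RefSeq table (TAIR10.1), which matched 823 of 842 loci. Distances to the gene start and the promoter sequence and its motifs are not reported, as no genome sequence or gene strand was used here. Ranks count ties as equal. Means and SDs are over replicates and no test was run, since there is 1 condition. Named genes were *AtbZIP60*, members of the 2 UPR lists in the lines used, the 5 most similar target genes, and the adjacent genes and nearest targets. The members and lists were chosen with earlier results of these data known. Merging and ranking were tested on simulated data. Other rankings, limits, definitions of overlap and averages, and each replicate left out, were tried. Python 3.11.15, pandas 2.3.3, NumPy 2.4.6 and matplotlib 3.10.9 were used.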

Additional observations from a re-analysis of the deposited data

How the results depend on the processing

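No paired comparison of conditions was possible because all samples with peak lists belong to 1 group. Of 47 alternative values for *AtbZIP60* and the UPR lists, 35 stayed within 1 SD of the replicates (or 1.5 times for a count) and 12 moved further, as did none of 85 alternative means of the other named genes. A median of 3 values, or their mean without 1 of them, cannot differ from their mean by more than 1 SD. For such alternatives the outcome was therefore fixed in advance, and the counts do not measure how stable the means are. The mean share of peaks below *AtbZIP60*, 96.5% by pileup, was 94.8% by width and 86.8% among peaks with a q-value under 1e-05. Its share among common regions, 88.7%, was 80.6% with 50% reciprocal overlap, 80.9% with a q-value under 1e-05, 73.7% among peaks enriched 3-fold or more, and 90.8% to 91.4% with each replicate left out. The limits on q-value and fold enrichment take out weaker peaks. Why the share was also lower with reciprocal overlap was not tested. The summits, 48 bp apart, were 9 to 48 bp apart with each replicate left out, the 9 bp without replicate 2. The peak midpoints were 476 bp apart. The width of 2095 bp was 1587 bp for the stretch in all replicates and 2730 bp for that in any. Mean fold enrichment was 7.27 to 8.08 with each replicate left out. The unknown depth limits all values to the spread of 3 replicates.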
